A study of Mus musculus with 4 samples.

Results

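The messenger RNAs of 9 genes that carry adrenergic, muscarinic and adenosine signals in heart muscle cells were examined in cardiomyocytes of sham-operated and pressure-overloaded mice. The genes were taken by symbol from the deposited tables, as 9 of 22322 genes in all. They comprised 5 receptors (Adrb1, Adra1a, Adra1b, Chrm2 and Adora1), the G protein alpha subunits Gnas and Gnai2, and the adenylyl cyclases Adcy5 and Adcy6. RNA sequencing was performed on 2 sham libraries and 2 TAC libraries. In transverse aortic constriction (TAC) a suture tightens the aortic arch, so that the left ventricle has to pump against a higher pressure. Per the study's methods, male mice were operated on at 2 months of age, and their hearts were examined by echocardiography 14 weeks after surgery. By the same methods, myocytes were isolated from the heart with a Langendorff perfusion system. Each library was made from a portion of the myocytes of a mouse heart. The same methods also give 14 weeks as the age of the mice at cell isolation, so the interval between surgery and isolation is uncertain. The sources used here give no strain, and no transgene is named for either group.

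Cardiac output is adjusted from beat to beat by neurotransmitters and local signals that act on receptors coupled to G proteins. Noradrenaline acts on the beta1-adrenergic receptor (Adrb1), which works through the stimulatory subunit Gs alpha (Gnas) to activate adenylyl cyclase, and the cyclic AMP that is made activates protein kinase A, which phosphorylates calcium-handling and myofilament proteins. Acetylcholine acts on the muscarinic M2 receptor (Chrm2) and adenosine acts on the A1 receptor (Adora1), and both receptors work through inhibitory subunits such as Gi alpha 2 (Gnai2), which restrain the cyclases and release beta-gamma dimers that open the potassium channel formed by the products of Kcnj3 and Kcnj5. The alpha1-adrenergic receptors (Adra1a and Adra1b) use Gq proteins and phospholipase C instead of cyclic AMP.

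Of the 9 genes, Chrm2 and Adra1a were lower in TAC cardiomyocytes. The M2 receptor transcript fell by 34.3% and the alpha1A-adrenergic receptor transcript fell by 31.7%. None of the 9 passed the test as higher. The count of Gnas, the gene of Gs alpha, was 25.9% higher on average, just outside the threshold. A gene was called when its p from edgeR's quasi-likelihood test, adjusted over the 12499 genes tested by the Benjamini-Hochberg method, was under 0.05. The 2 lower calls among 9 genes stood against 2.43% of all tested genes called lower, the 0 higher calls stood against 2.58% called higher, and 5.01% were called in either direction. The balance over all tested genes moved with the scaling, from 322 higher and 304 lower to 105 higher and 423 lower when the libraries were scaled by total counts, and Chrm2 and Adra1a were called lower with both. At an unadjusted p under 0.05, 4 of the 9 passed, against 3438 of the 12499 genes. The median log2 fold change of the 9 was -0.23, with 7 negative and 2 positive values, beside -0.01 over all tested genes. Both TAC libraries lay below both sham libraries for 3 of the 9 (30.3% of all tested genes) and above both for 1 (29.8% of all tested genes), and the groups overlapped for the other 5.

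The libraries held 24237777 to 32118323 counts each, and 14495 to 14949 genes had a count. TAC 1 stood apart from the other libraries, with a scaling factor of 0.868 by the TMM method (trimmed mean of M values) against 1.009 to 1.097, so results are also given without it where this matters. Mitochondrial genes took 47.42% of its counts (95% Wilson interval 47.4 to 47.43%, counting error only) and 39.84 to 40.85% in the others. The part of this difference in the results was not tested. The median of the 9 genes was -0.01 without TAC 1 and -0.43 without TAC 2. The 10 cardiomyocyte markers checked against the label, Myh6 and Tnnt2 among them, were abundant in every library, with summed levels of 57510 and 65950 CPM in sham and 64990 and 62270 CPM in TAC. By gene, 5 of the 10 were higher and 2 lower in both TAC libraries than in both sham libraries. Of all tested genes, 29.8% were higher and 30.3% lower in this way. The median log2 fold change of the 10 was 0.21, and Tnnc1 was called higher (0.52 ± 0.09, edgeR adjusted p = 0.0278). CPM are counts scaled to a common, TMM-adjusted library size.

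**Figure D1:**
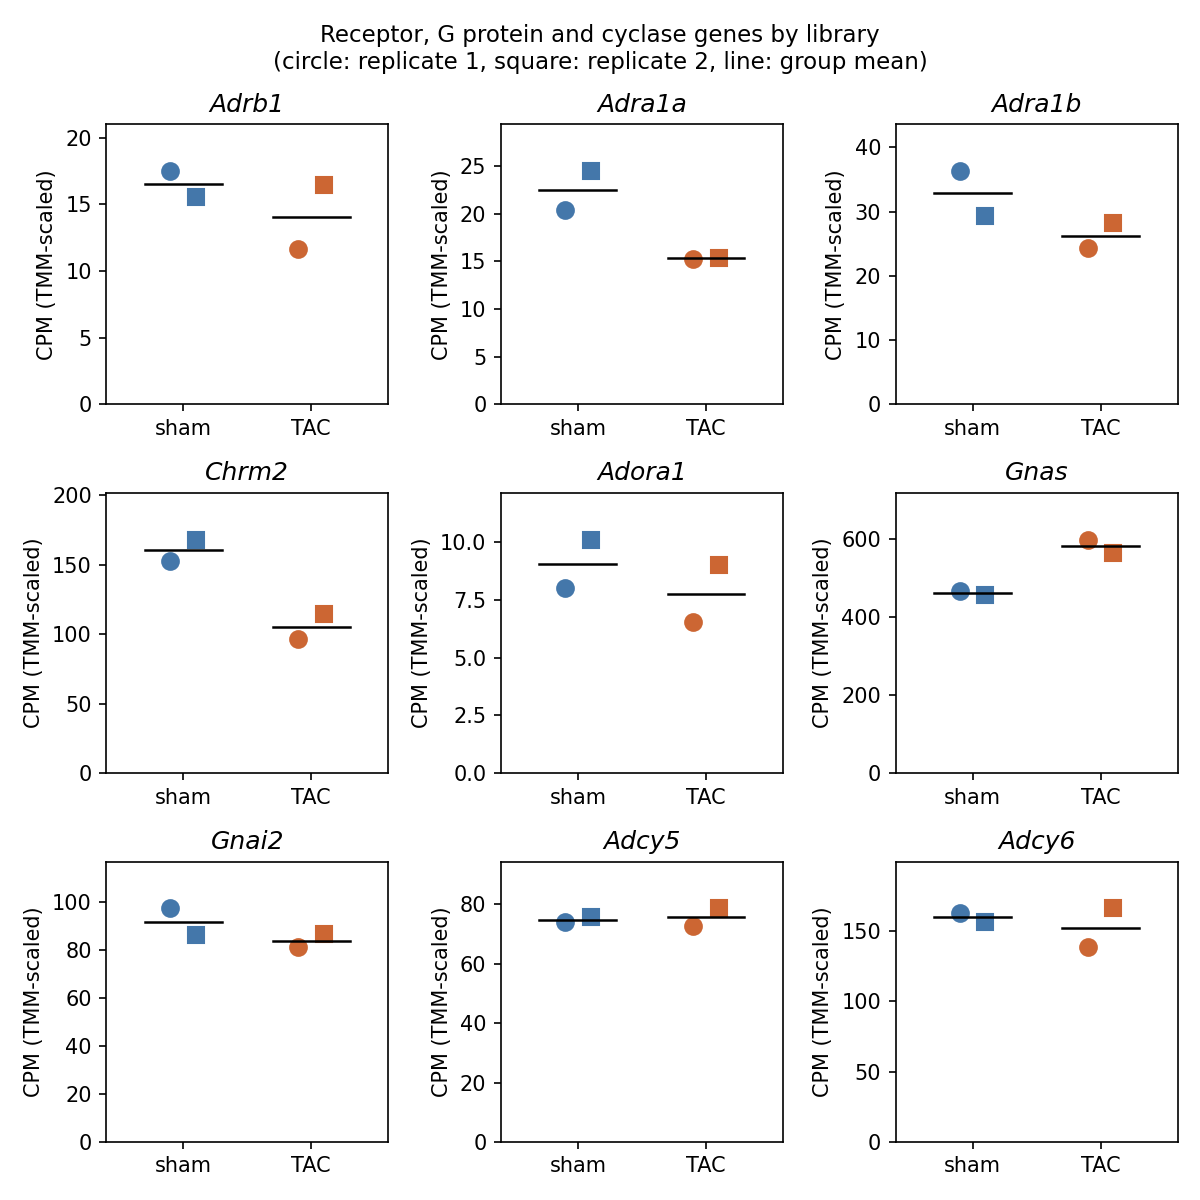
Level of each of the 9 genes in CPM (TMM-scaled counts, linear axes from 0) in the sham and TAC libraries, with circles for replicate 1, squares for replicate 2 and a line at the mean of each group. Both TAC points lie below both sham points for Adra1a, Adra1b and Chrm2 and above them for Gnas.

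The first question was whether the receptors for acetylcholine and adenosine, which slow the heart and oppose the beta-adrenergic signal, differed between TAC and sham. Chrm2 (ENSMUSG00000045613, chr6:36388084-36528414, plus strand, GRCm38), the main muscarinic receptor of heart muscle, was measured at 152 and 168 CPM in the sham libraries and at 96.3 and 114 CPM in the TAC libraries. Both TAC libraries were well below both sham libraries, and the gap between the groups was larger than the spread within either. The group means were 160.2 ± 11.1 CPM in sham and 105 ± 12.7 CPM in TAC (SD, n = 2 each). The log2 fold change was -0.60 ± 0.10 (SE), with an edgeR adjusted p of 0.0236. Without TAC 1 it was -0.49 with an edgeR adjusted p of 0.0528, which no longer passed. The groups were further apart without TAC 2, at -0.73.

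Adora1 (ENSMUSG00000042429, chr1:134199223-134235431, minus strand), the adenosine receptor that couples to Gi in myocytes, had the lowest level of the 9 genes. It was measured at 8.03 and 10.1 CPM in sham and at 6.53 and 9.0 CPM in TAC. The TAC 2 value lay between the sham values, so the groups overlapped. Its difference of -0.23 ± 0.20 (log2 fold change ± SE) did not pass (edgeR adjusted p = 0.483). It rested on single libraries, at -0.01 without TAC 1, -0.05 without sham 2 and -0.47 without TAC 2.

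Exons of Chrm2 overlap those of the lincRNA gene 9330158H04Rik on the other strand in the GENCODE M21 annotation, and exons of Adora1 overlap those of Mybph on the other strand. The sources used here do not say whether counting used strand, so that reads of such partners cannot be told apart. This holds likewise for Adcy6 with Gm29331 and for Gnas with Nespas and Gm20721.

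Transcripts of the potassium channel that beta-gamma dimers open were lower in TAC, as that of Chrm2 was. Kcnj3 (chr2:55435970-55598145, plus strand), which encodes the Kir3.1 subunit, was measured at 109 and 108 CPM in sham and at 69.4 and 74.3 CPM in TAC. Kcnj5 (chr9:32314707-32344350, minus strand), which encodes the Kir3.4 subunit, was measured at 81.1 and 85.7 CPM in sham and at 55.2 and 59.95 CPM in TAC. For both subunits the sham libraries lay close together and the TAC libraries lay close together, with no overlap. Kcnj3 fell by 33.9% (log2 fold change -0.60 ± 0.07, edgeR adjusted p = 0.00896). Kcnj5 fell by 31.0% (log2 fold change -0.54 ± 0.08, edgeR adjusted p = 0.0173). These were the 2 of 2 listed channel genes, and their calls at the 0.05 threshold held in all 13 other fits, with any library left out included. Of all tested genes, 2.43% were called lower, and the lists were drawn up with earlier results of these data known. At a threshold of 0.01 Kcnj3 would pass and Kcnj5 would not. Exons of Kcnj3 overlap those of the lincRNA gene Gm26794 on the other strand.

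Chrm2, Kcnj3 and Kcnj5 were each called lower. The sequences upstream of their start sites are shown, from 200 bases to 11 bases before the start. They come from RefSeq promoters on GRCm38.p6, are written 5′ to 3′ on the strand of the gene, and lie at chr6:36387884-36388073 (plus) for Chrm2, chr2:55435770-55435959 (plus) for Kcnj3 and chr9:32344355-32344544 (minus) for Kcnj5. Capitals mark matches, on either strand, to a CCAAT box (CCAAT), a GC box (GGGCGG) or the core of a cyclic AMP response element (TGACG).
Chrm2: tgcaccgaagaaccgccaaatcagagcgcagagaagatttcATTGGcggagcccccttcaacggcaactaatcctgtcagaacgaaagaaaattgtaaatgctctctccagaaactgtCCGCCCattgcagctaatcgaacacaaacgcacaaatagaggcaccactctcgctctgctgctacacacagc
Kcnj3: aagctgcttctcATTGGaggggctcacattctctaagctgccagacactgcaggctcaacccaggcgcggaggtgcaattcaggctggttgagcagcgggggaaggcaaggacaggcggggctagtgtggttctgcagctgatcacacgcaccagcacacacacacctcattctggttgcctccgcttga
Kcnj5: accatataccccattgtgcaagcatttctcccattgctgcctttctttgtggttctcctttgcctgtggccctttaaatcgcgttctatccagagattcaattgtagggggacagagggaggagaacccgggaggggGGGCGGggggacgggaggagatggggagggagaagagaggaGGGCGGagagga

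In the Chrm2 stretch a CCAAT box match on the minus strand began at -159 and a GC box match on the minus strand began at -82. The Kcnj3 stretch held a CCAAT box match on the minus strand at -188. The Kcnj5 stretch held GC box matches at -63 and -22. None of the 3 motifs was found in all of these windows, and the cyclic AMP response element core was found in none of the 3 stretches. Among 32851 RefSeq promoters, the same 190-base window held a CCAAT box in 28.5%, a GC box in 29.5% and the response element core in 14.7%. The Chrm2 window overlaps an annotated exon of 9330158H04Rik and the Kcnj3 window overlaps one of Gm26794. A match describes the letters and not a bound site. Promoters were matched for 6 of the 9 genes, and those of Adra1a, Adcy6 and Gnai2 were not analysed here.

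The next comparison concerned the adrenergic receptors. Adra1a (ENSMUSG00000045875, chr14:66635251-66771168, plus strand), which encodes the alpha1A receptor, was measured at 20.4 and 24.5 CPM in sham and at 15.3 and 15.4 CPM in TAC. The TAC libraries were almost equal to each other and both lay below both sham libraries, which differed more. The group means were 22.5 ± 2.89 CPM in sham and 15.3 ± 0.0694 CPM in TAC (SD, n = 2 each). The log2 fold change was -0.55 ± 0.12 (SE), with an edgeR adjusted p of 0.0467. This call was close to the threshold. The edgeR adjusted p was 0.130 without sham 2, 0.120 without TAC 1 and 0.0504 without TAC 2, and limma on log2(FPKM + 1) and on log2(FPKM + 0.1) gave an adjusted p of 0.058 with each. The direction was the same in all 5.

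Adra1b (ENSMUSG00000050541, chr11:43774606-43901210, minus strand), which encodes the alpha1B receptor, was measured at 36.3 and 29.3 CPM in sham and at 24.3 and 28.3 CPM in TAC. Both TAC libraries were lower, but sham 2 and TAC 2 lay close together. The log2 fold change of -0.32 ± 0.13 (SE) did not pass, with an edgeR adjusted p of 0.161, and was -0.16 without sham 1 and -0.46 without sham 2. The third alpha1 receptor gene, Adra1d, the highest by FPKM among the other receptors listed, was at 2.86 to 3.51 CPM in the 4 libraries and gave -0.17 ± 0.22 (log2 fold change ± SE, edgeR adjusted p = 0.660).

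Adrb1 (ENSMUSG00000035283, chr19:56722199-56733113, plus strand), the beta-adrenergic receptor through which the sympathetic nerves raise rate and force, was measured at 17.5 and 15.5 CPM in sham and at 11.7 and 16.4 CPM in TAC. TAC 1 was the lowest library and TAC 2 lay between the sham libraries, so the groups overlapped. A difference of -0.24 ± 0.17 (log2 fold change ± SE) was found (edgeR adjusted p = 0.388), and it depended on single TAC libraries, at -0.01 without TAC 1 and -0.50 without TAC 2. Its promoter held a CCAAT box match at -106 on the minus strand and a cyclic AMP response element core at -90. This core was also matched in promoters of Gnas, and in 14.7% of all 32851 RefSeq promoters.

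Adrb3, the beta3 receptor, had 0 counts in both sham libraries and 3 and 2 counts in TAC 1 and TAC 2. At the depth of these libraries 3 counts correspond to 0.0948 to 0.123 CPM, so a difference in Adrb3 was not detectable at this depth.

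Among the adenosine receptors outside the 9 genes, Adora2a, an adenosine receptor that couples to Gs, was measured at 3.67 and 3.44 CPM in sham and at 1.76 and 2.21 CPM in TAC. The groups did not overlap, yet the log2 fold change of -0.84 ± 0.24 did not pass (edgeR adjusted p = 0.0818). Adora2b had 5, 2, 0 and 4 counts in sham 1, sham 2, TAC 1 and TAC 2. Of the 12 other adrenergic, muscarinic and adenosine receptor genes listed, 2 had enough counts to be tested (Adra1d and Adora2a). For both of them both TAC libraries were lower than both sham libraries, beside 30.3% of all tested genes. For Adra1d, sham 2 and TAC 1 were almost equal (2.92 and 2.87 CPM). Neither gene was called, and the median log2 fold change was -0.51. Adra2a, Chrm1 and Chrm5 had 0 counts in all 4 libraries, which allows up to the same 0.0948 to 0.123 CPM. Among muscarinic receptor genes Chrm2 was the only one tested.

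The lower receptor and channel transcripts were accompanied by lower levels of transcripts from other cell types. Endothelial markers summed to 838 and 698 CPM in sham and 386 and 543 CPM in TAC, with 10 of 12 genes lower in both TAC libraries than in both sham libraries, beside 30.3% of all tested genes. Fibroblast markers summed to 516 and 357 CPM in sham and 197 and 275 CPM in TAC, with 10 of 10 lower. Mural cell markers, of pericytes and smooth muscle, summed to 757 and 796 CPM in sham and 440.1 and 578 CPM in TAC, with 8 of 9 lower, and macrophage markers summed to 137 and 70.5 CPM in sham and 37.6 and 70.2 CPM in TAC, with 7 of 10 lower. Abcc9 and Rgs5 carried most of the mural sum, and Abcc9, at 380 and 406 CPM in sham and 279 and 303 CPM in TAC, is also expressed by heart muscle cells. No marker of these 4 lists was at 0 in any library. Adra1a, Adra1b and Adora2a are also expressed in vessel wall or endothelial cells, and the part of these markers in the fold changes was not tested. In bulk RNA, fewer cells of a type and less RNA per cell cannot be told apart.

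Atrial myocytes and cardiac nerves are other places where these genes are known to be active. The 5 atrial markers, such as Sln and Myl7, summed to 75.4 CPM in sham 1, 5.84 CPM in sham 2, 26.5 CPM in TAC 1 and 37.1 CPM in TAC 2. Sham 1 was the highest and sham 2 the lowest library on this sum, and its part in the values of Chrm2, Kcnj3 and Kcnj5 was not tested. The 8 nerve and Schwann cell markers summed to 1.97 to 3.30 CPM in the 4 libraries, and Chat, which makes acetylcholine, was at 0 in all 4.

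**Figure D2:**
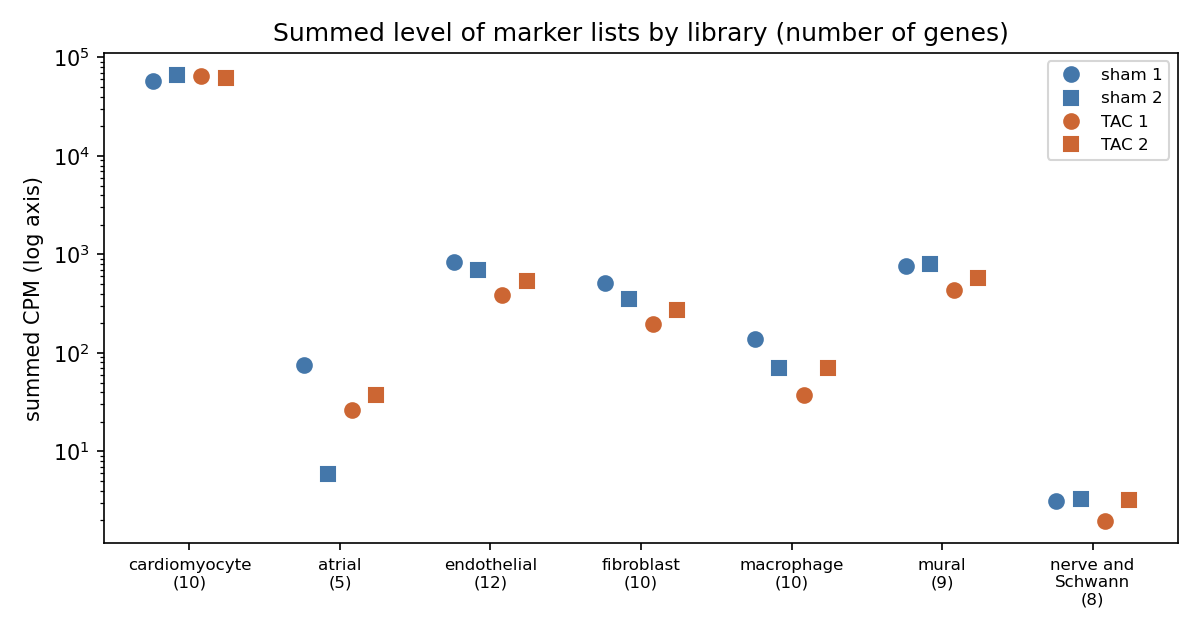
Summed CPM (log axis) of marker genes of cardiomyocytes, atrial myocytes, endothelial cells, fibroblasts, macrophages, mural cells and nerve and Schwann cells in each library, with the number of genes in parentheses. The endothelial, fibroblast and mural sums are lower in both TAC libraries than in both sham libraries. So is the macrophage sum, though TAC 2 is almost equal to sham 2. The cardiomyocyte sums overlap, and the atrial sum is highest in sham 1 and lowest in sham 2.

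The G protein alpha subunits were compared next. Gnas (ENSMUSG00000027523, chr2:174284320-174346744, plus strand), whose main product Gs alpha couples beta receptors to the cyclases, was measured at 466 and 457 CPM in sham and at 599 and 563 CPM in TAC. Both TAC libraries lay above both sham libraries by more than the replicates differed. The group means were 461 ± 6.16 CPM in sham and 581 ± 24.8 CPM in TAC (SD, n = 2 each). With a log2 fold change of 0.33 ± 0.08 (SE) and an edgeR adjusted p of 0.0512, it missed the threshold. It passed in 5 of 13 other fits, among them DESeq2 (adjusted p = 0.00353) and limma-voom (adjusted p = 0.0373). Scaling libraries by total counts lowered the log2 fold change to 0.14, with an edgeR adjusted p of 0.506, in a setting that moved the median of all tested genes to -0.20. The locus also has alternative starts with products other than Gs alpha, which a count per gene does not separate.

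Gnai2 (ENSMUSG00000032562, chr9:107614125-107635367, minus strand), the most abundant Gi subunit by FPKM, was measured at 97.3 and 86.2 CPM in sham and at 81.2 and 86.5 CPM in TAC. Sham 2 and TAC 2 were almost equal, and the groups overlapped. TAC minus sham was -0.13 ± 0.09 (log2 fold change ± SE, edgeR adjusted p = 0.358), and was -0.04 without sham 1 and -0.21 without sham 2. Its relatives Gnai1 and Gnai3 had log2 fold changes of -0.72 ± 0.33 (edgeR adjusted p = 0.208) and -0.13 ± 0.19 (edgeR adjusted p = 0.688).

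Gnao1, which encodes Go alpha, another subunit of the inhibitory family, was higher in TAC. It was measured at 13.2 and 13.8 CPM in sham and at 27.8 and 21.3 CPM in TAC. The sham libraries were nearly equal, and both TAC libraries lay well above them. Gnao1 was 81.6% higher in TAC (log2 fold change 0.86 ± 0.14, edgeR adjusted p = 0.0230). The value was 0.65 without TAC 1 (edgeR adjusted p = 0.0478) and 1.04 without TAC 2. The call was lost on FPKM, where limma gave 0.58 on log2(FPKM + 1) and 0.67 on log2(FPKM + 0.1), both with an adjusted p of 0.082. Exons of Gnao1 overlap those of the antisense gene 4930488L21Rik.

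The subunits that carry alpha1 signals did not pass. Gnaq was at 14.9 and 13.9 CPM in sham and 12.8 and 13.5 CPM in TAC (log2 fold change -0.14 ± 0.11, edgeR adjusted p = 0.464), and Gna11 was at 40.8 and 42.1 CPM in sham and 41.6 and 43.96 CPM in TAC (log2 fold change 0.05 ± 0.08, edgeR adjusted p = 0.743). Gna12, the highest of the other alpha subunits by FPKM, gave 0.03 ± 0.07 (log2 fold change ± SE, edgeR adjusted p = 0.820). Of the 11 other alpha subunit genes, 8 were tested, 1 was called higher (Gnao1) and 0 lower, with a median log2 fold change of -0.06.

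Of 16 beta and gamma subunit genes, 12 were tested, 1 was called higher and 0 lower, with a median log2 fold change of -0.21. At an unadjusted p under 0.05, 6 of the 12 passed, beside 3438 of the 12499 genes. Both TAC libraries lay below both sham libraries for 6 (30.3% of all tested genes) and above both for 3 (29.8% of all tested genes). The called gene was Gnb3, a beta subunit, which was measured at 7.96 and 10.4 CPM in sham and at 18.6 and 15.1 CPM in TAC. It was 84.1% higher in TAC (log2 fold change 0.88 ± 0.17, edgeR adjusted p = 0.0333), with no overlap between groups. The log2 fold change was 0.72 without TAC 1. The call was lost with total-count scaling (edgeR adjusted p = 0.0512). It was also lost on FPKM, where limma gave 0.60 on log2(FPKM + 1) (adjusted p = 0.0803) and 0.68 on log2(FPKM + 0.1) (adjusted p = 0.0808). Gng5, a gamma subunit and the highest of this list by FPKM, gave 0.34 ± 0.09 (log2 fold change ± SE, edgeR adjusted p = 0.0704).

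Adcy5 and Adcy6 encode the main adenylyl cyclases of heart muscle, both inhibited by Gi. Adcy5 (ENSMUSG00000022840, chr16:35154877-35305738, plus strand) was measured at 74.2 and 75.6 CPM in sham and at 72.9 and 78.7 CPM in TAC. Adcy6 (ENSMUSG00000022994, chr15:98589973-98610076, minus strand) was measured at 163 and 157 CPM in sham and at 139 and 166 CPM in TAC. For both cyclases the sham values fell within the range of the TAC values. Adcy5 differed by 0.02 ± 0.08 (log2 fold change ± SE, edgeR adjusted p = 0.910) and Adcy6 by -0.07 ± 0.10 (edgeR adjusted p = 0.679). The sign of Adcy5 was the same in 8 of 13 other fits and that of Adcy6 in 12 of 13.

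Of 8 other adenylyl cyclase genes, 6 were tested and none was called. At an unadjusted p under 0.05, 3 of the 6 passed, beside 3438 of the 12499 genes. All 6 had negative log2 fold changes, with a median of -0.62. The largest falls were in genes with few counts, named after their values were seen. Adcy8, on 14 to 53 counts per library, gave -1.34 ± 0.39 (edgeR adjusted p = 0.0871). Adcy7, on 40 to 145 counts per library, gave -0.98 ± 0.30 (edgeR adjusted p = 0.0963). Adcy9, the highest of them by FPKM, was measured at 18.6 and 20.7 CPM in sham and at 14.2 and 14.7 CPM in TAC. Its groups did not overlap, and the log2 fold change of -0.44 ± 0.11 came close to the threshold (edgeR adjusted p = 0.0615). Adcy4 gave -0.17 ± 0.20 (log2 fold change ± SE, edgeR adjusted p = 0.612) and Adcy3, on 17.4 to 58.1 estimated counts per library, gave -0.80 ± 0.55 (edgeR adjusted p = 0.376).

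**Figure D3:**
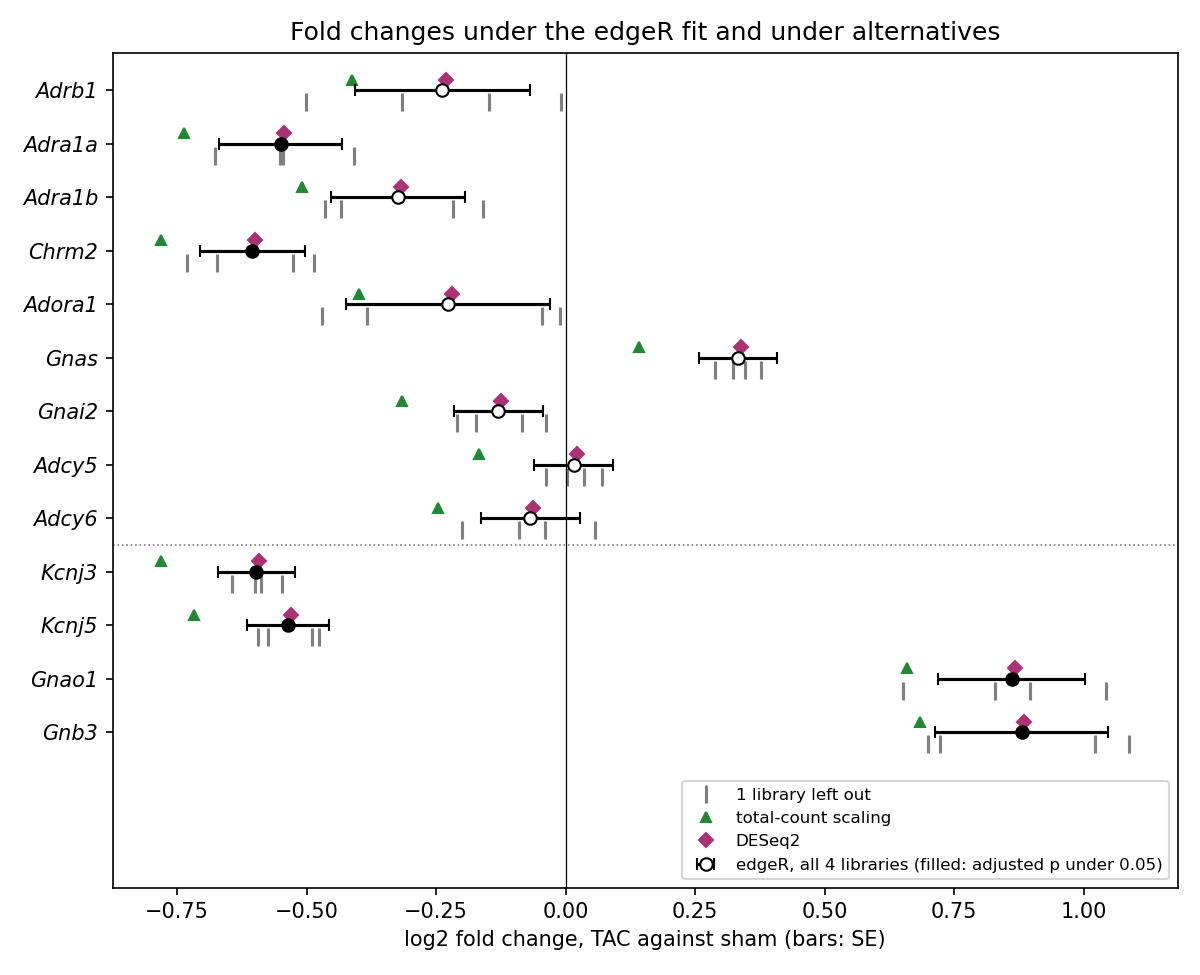
Log2 fold change, TAC against sham, of the 9 genes (above the dotted line) and the 4 other pathway genes called (below it). Circles with bars are the edgeR value and its SE from all 4 libraries, filled where the adjusted p is under 0.05, green triangles are total-count scaling, purple diamonds are DESeq2 and grey ticks leave out 1 library. Chrm2, Adra1a, Kcnj3 and Kcnj5 stay to the left of 0 and Gnas, Gnao1 and Gnb3 to the right of 0 in every setting drawn, with Gnas unfilled.

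Levels were compared between genes on the deposited FPKM, which divides by transcript length. The order of the mean over the 4 libraries was Gnas (345 ± 34.9 FPKM, SD, n = 4), Gnai2 (40.6 ± 6.83), Adcy6 (27.9 ± 4.60), Chrm2 (23.8 ± 7.63), Adra1b (14.1 ± 3.56), Adcy5 (10.8 ± 1.19), Adra1a (5.28 ± 1.78), Adrb1 (5.26 ± 1.3) and Adora1 (2.07 ± 0.548), all in FPKM with the SD of 4 libraries. Gnas, counted over all products of the locus, was thus far above every other gene of the set, and Chrm2 was the highest receptor. By group, Adra1a was above Adrb1 in sham (6.76 against 5.99 FPKM) and below it in TAC (3.79 against 4.53 FPKM). The ranges of neighbours overlapped for Adcy6 and Chrm2, Chrm2 and Adra1b, Adra1b and Adcy5, and Adra1a and Adrb1. Adra1a exceeded Adrb1 in 2 of 4 libraries, and Adcy6 exceeded Chrm2 in 3 of 4, so the order within these pairs was not the same in every library, whereas Chrm2 exceeded Adra1b and Adra1b exceeded Adcy5 in 4 of 4.

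Ratios within a library do not depend on how libraries are scaled. The ratio of Gnai2 to Gnas in FPKM was 0.146 and 0.132 in sham and 0.0947 and 0.103 in TAC, lower in both TAC libraries. The ratio of Adrb1 to Chrm2 was 0.221 and 0.178 in sham and 0.233 and 0.277 in TAC, higher in both TAC libraries. The spread of this ratio within each group was wider than the gap between the groups. The ratio of Adcy5 to Adcy6 was 0.366 and 0.384 in sham and 0.425 and 0.385 in TAC, where TAC 2 differed little from sham 2. Taken from CPM, without length, this ratio was 0.456 and 0.483 in sham and 0.526 and 0.474 in TAC, so that the groups overlapped. For each of these 3 FPKM ratios the exact two-sided permutation test gave p = 0.333, the smallest that 2 libraries against 2 can give. The ratio of Adra1b to Adra1a, at 2.96 and 2.01 in sham and 2.84 and 3.28 in TAC, and that of Adora1 to Adrb1, at 0.323 and 0.488 in sham and 0.391 and 0.384 in TAC, overlapped between groups.

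Downstream of the receptors, genes were read by role from the same fit. Over the 90 pathway genes listed beside the 9, 69 were tested, 2 were called higher (Gnao1 and Gnb3) and 2 lower (Kcnj3 and Kcnj5). That is 4 of 69 beside 5.01% of all tested genes, and 27 passed at an unadjusted p under 0.05, beside 3438 of the 12499 genes. The median log2 fold change of the 69 was -0.14, with 43 negative and 26 positive values.

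None of the 7 receptor kinase and arrestin genes, whose products switch receptors off after stimulation, was called (median log2 fold change -0.14, 2 at an unadjusted p under 0.05). Grk2, which phosphorylates beta receptors and is the highest of this list by FPKM, was measured at 39.4 and 34.5 CPM in sham and at 38.8 and 37.95 CPM in TAC. The TAC values lay within the sham range (log2 fold change 0.05 ± 0.09, edgeR adjusted p = 0.745). Grk3 gave 0.18 ± 0.13 (log2 fold change ± SE, edgeR adjusted p = 0.395) and Grk5 gave -0.14 ± 0.10 (edgeR adjusted p = 0.388). The 2 genes at an unadjusted p under 0.05, named after their values were seen, were Arrb1, for beta-arrestin 1 (-0.59 ± 0.18, edgeR adjusted p = 0.0921), and Grk6 (-0.39 ± 0.14, edgeR adjusted p = 0.126), with both TAC libraries lower for each.

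Of 11 genes for cyclic AMP effectors, 10 were tested and none was called (median log2 fold change 0.05, 3 at an unadjusted p under 0.05). Prkar1a, the regulatory subunit RI alpha that holds protein kinase A inactive until cyclic AMP binds, was measured at 379 and 339 CPM in sham and at 472 and 456 CPM in TAC. Both TAC libraries lay above both sham libraries, and the log2 fold change of 0.37 ± 0.08 fell just outside the threshold (edgeR adjusted p = 0.0501). The catalytic subunit gene Prkaca gave 0.19 ± 0.07 (log2 fold change ± SE, edgeR adjusted p = 0.135), and Prkar2a, for the regulatory subunit RII alpha, gave 0.08 ± 0.08 (edgeR adjusted p = 0.546). Of the 3 genes at an unadjusted p under 0.05, Prkar1a and Prkaca were higher in TAC. The other was Rapgef3, named after its values were seen (-0.41 ± 0.14, edgeR adjusted p = 0.121), with both TAC libraries lower.

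Among 8 tested Gq effector genes, phospholipase C beta and protein kinase C isoforms, none was called (median log2 fold change -0.27, 3 at an unadjusted p under 0.05). For 6 of the 8 both TAC libraries were lower than both sham libraries, beside 30.3% of all tested genes. Plcb4, the highest of them by FPKM, was measured at 44.8 and 48.5 CPM in sham and at 33.6 and 40.7 CPM in TAC (log2 fold change -0.33 ± 0.11, edgeR adjusted p = 0.109).

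The 7 protein kinase A targets of heart muscle included phospholamban, the ryanodine receptor and cardiac troponin I, and none was called (median log2 fold change 0.02, 3 at an unadjusted p under 0.05). Tnni3, cardiac troponin I and the highest by FPKM, was measured at 2121 and 2274 CPM in sham and at 2345 and 2113 CPM in TAC, with overlapping groups (log2 fold change 0.02 ± 0.10, edgeR adjusted p = 0.909). The 3 genes at an unadjusted p under 0.05, named after their values were seen, went both ways. Ryr2, the ryanodine receptor, gave -0.38 ± 0.10 (edgeR adjusted p = 0.0640), while Rrad, which restrains the calcium channel, gave 0.47 ± 0.12 (edgeR adjusted p = 0.0637) and Mybpc3, a myofilament protein, gave 0.40 ± 0.13 (edgeR adjusted p = 0.106).

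Of 8 listed genes that make or remove the ligands, 7 were tested and none was called (median log2 fold change -0.11, 3 at an unadjusted p under 0.05). Adk, which encodes adenosine kinase and so removes adenosine inside the cell, was the highest of them by FPKM and was measured at 105 and 117 CPM in sham and at 137 and 124 CPM in TAC. Both TAC libraries lay above both sham libraries, but the spread within each group was wider than the gap between them (log2 fold change 0.23 ± 0.09, edgeR adjusted p = 0.144). Maob and Nt5e also had an unadjusted p under 0.05, were named after their values were seen and went opposite ways. Maob gave -0.30 ± 0.08 (edgeR adjusted p = 0.0691) and Nt5e gave 0.51 ± 0.18 (edgeR adjusted p = 0.12).

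**Figure D4:**
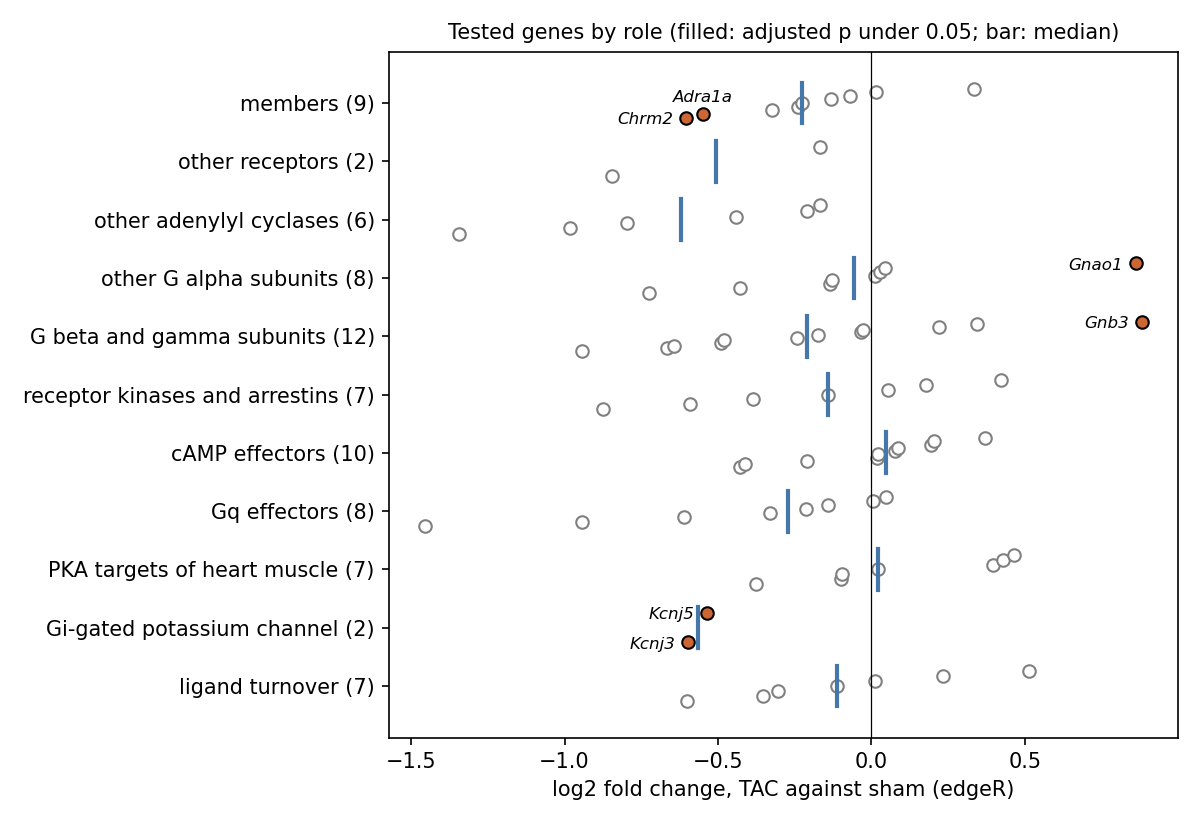
Log2 fold change, TAC against sham, of every tested gene by role, with the number of genes in parentheses, filled points for an adjusted p under 0.05 and a blue bar at the median of the role. The first row holds the 9 genes. The filled points are Chrm2, Adra1a, Kcnj3 and Kcnj5 to the left of 0 and Gnao1 and Gnb3 to the right.

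The genes whose levels followed the 2 called receptors most closely over the 4 libraries were sought among the 8485 tested genes that averaged 5 CPM or more, by the Euclidean distance between centred log2 CPM. Nearest to Adra1a were Slc25a42, at a distance of 0.035, Idh1 at 0.040 and Agrn at 0.056. Nearest to Chrm2 were Jade1 at 0.036, Prr12 at 0.049 and Papss2 at 0.054. These names describe the pattern of levels only.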

How the data were processed

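RNA of isolated cardiomyocytes was sequenced in 2 sham and 2 TAC libraries, grouped by their titles. The authors deposited, per gene and library, FPKM (fragments relative to transcript length and depth) and an expected count, which is an estimated number of fragments. The submitters' processing notes name Bowtie2 2.2.8, StringTie 1.3.1 and mm10, and the sources used here do not give the counting program, the annotation or whether strand was used. Expected counts were not whole for 1432 to 1519 genes, depending on the library, so fragments shared by similar genes may have been divided. Totals were 28844755 and 27678165 in sham and 32118323 and 24237777 in TAC. A symbol was absent for 16 genes, and 6291 genes had no count.

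Counts were rounded and tested in R 4.3.3 with edgeR 4.0.16 (filterByExpr, TMM, glmQLFit and glmQLFTest without a block), with Benjamini-Hochberg adjustment over 12499 genes and a threshold of 0.05. The SE is the size of the log2 fold change divided by the square root of F. The study's methods name scaling by total counts, which was an alternative here. Other alternatives were totals without mitochondrial genes, DESeq2 1.42.0, limma-voom (limma 3.58.1), no filter, a replicate block, each library left out, limma on log2(FPKM + 1) and log2(FPKM + 0.1), and thresholds of 0.1 and 0.01. Chi-square per degree of freedom between libraries of a group was 9.19 in sham and 31.3 in TAC, so within a group no library was a copy of the other. Libraries of different groups were not compared in this way. Per the study's methods each library holds myocytes of a different mouse, and p-values measure the spread between these libraries only. An exact permutation test of 2 against 2 cannot give less than p = 0.333.

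All 9 genes were named, with every pathway gene under the threshold, the highest gene by FPKM of each list and a preset set of relatives, except that some listed genes are not reported here. The genes, lists and rules were chosen with earlier results of these data known. Coordinates are from GENCODE M21 on GRCm38 and promoters from RefSeq on GRCm38.p6.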

Additional observations from a re-analysis of the deposited data

How the results depend on the processing

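Scaling and threshold moved the balance of higher and lower calls, which was 322 to 304 in the edgeR fit. At an adjusted p under 0.1, 1817 genes were called (878 higher, 939 lower), with 15 of the pathway genes, and under 0.01 it was 92 genes (70 higher, 22 lower), with 0 of the 9 genes and 1 of the pathway genes. Total-count scaling called 105 genes higher and 423 lower, and totals without mitochondrial genes called 188 higher and 450 lower, with 7 of the pathway genes. DESeq2 called 883 genes (454 higher, 429 lower), with 3 of the 9 genes and 8 of the pathway genes, and limma-voom 692 (362 higher, 330 lower), with 3 of the 9 and 6 of the pathway genes. Limma on log2(FPKM + 1) and on log2(FPKM + 0.1) called 1 of the 9, Chrm2, with each. Without the low-count filter, 1676 genes were called (707 higher, 969 lower), with 16 of the pathway genes. Leaving out 1 library gave 301 (without TAC 1) to 1336 (without TAC 2) called genes, 183 to 560 higher and 118 to 776 lower, with 0 (without TAC 1) to 2 of the 9 genes and 5 to 9 of the pathway genes. The cause of these shifts was not tested.

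Replicate numbers are shared between the groups, but nothing in the labels says that they pair mice. The study's methods speak of pairs of sham and TAC mice without saying that the numbers mark them. The deviations of same-numbered libraries from their group means had a correlation of -0.24. With the replicate block 566 genes were called (268 higher, 298 lower), with 2 of the 9 genes and 4 of the pathway genes. The crossed replicate block, chosen after seeing the data, called 2131 genes (968 higher, 1163 lower), with 4 of the 9 genes and 16 of the pathway genes.

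Across the single genes tested there were 151 values on the same side of the threshold, 12 that fell below it, 6 that rose past it and 0 with a reversed call. At the 0.05 threshold Chrm2 kept its call in 12 of 13 other fits (adjusted p 1.43e-05 to 0.0528 over edgeR, DESeq2 and limma), Adra1a in 8 of 13 (0.00689 to 0.130), Gnao1 in 11 and Gnb3 in 9. Adra1b was called in 1, the crossed block (edgeR adjusted p = 0.0345). The low-count filter left 21 of the 90 pathway genes untested.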
